A study of Homo sapiens with 39 samples.

Results

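The genes described here are 10 members of the extracellular matrix programme: FN1, TNC, SPARC, THBS1, THBS2, POSTN and SPP1, which encode adhesive and matricellular proteins, and LOX, LOXL2 and LOXL3, which encode matrix crosslinkers. They were chosen by symbol, as a named set of matrix genes. Earlier results of these data were known at that choice, so counts of called members are no test of the set. The members are 10 of the 60671 genes in the deposited table. All 10 symbols were found there. RNA was sequenced from the human melanoma cell lines A375 and WM115, as unedited cells (WT) and as clones that lack an enhancer region of SOX10, called R1 or R4. SOX10 is a transcription factor gene that neural crest cells and melanocytes depend on.

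A375 gave 4 WT libraries, 3 and 4 libraries of R1 deletion clones 1.1 and 1.2, and 4 and 3 libraries of R4 deletion clones 4.1 and 4.2. WM115 gave 4 WT libraries, 5 and 3 of R1 deletion clones 1.1 and 1.2, and 3 each of R4 deletion clones 4.1 and 4.2. WM115 clone 1.3, with 3 libraries, has a title of the R1 series and an R4 genotype label, and is described without a region. Each numbered group is 1 clone, so its libraries repeat that clone and not the deletion. Nothing in the labels says that libraries of a group came from separate cultures, so p-values measure only the spread between libraries, which may be technical.

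Matricellular proteins are secreted into the matrix, where they regulate adhesion and signalling more than they build fibres. Fibronectin and tenascin-C are large modular proteins that bind integrins, and their alternative exons change which modules the protein carries. Lysyl oxidases are copper enzymes that oxidise lysine residues of collagen and elastin, the first step of covalent crosslinking. In melanoma this group of genes is known from invasive and dedifferentiated states and from stroma.

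Values are TPM, a share of each library corrected for transcript length, and tests used limma on log2(TPM + 1). Calls needed an adjusted p below 0.05 together with a log2 difference of 1 or more in either direction. SOX10 RNA was at 630 to 706 TPM in A375 WT and 381 to 876 in A375 clones, and at 449 to 553 in WM115 WT and 9.56 to 525 in WM115 clones. Melanocytic markers were mixed: PRAME was at 73.7 TPM or more in A375 and at 18.5 or less in WM115, while TYR was at 0 in 17 of 18 A375 libraries and in 6 of 21 WM115 libraries. Of 7 fibroblast markers, DPT was at 0 in all 39 libraries. COL1A1, COL3A1, DCN and PDGFRA stayed at or under 4.55 TPM in both lines. LUM reached 7.45 TPM in A375 and 26.4 in WM115. COL1A2 was at 0.345 TPM or less in A375 and at 365 to 857 TPM in WM115. Libraries of WM115 differed in 2 more ways. Mitochondrially encoded genes took 13.7% to 15.6% of TPM in WT but under 7.5% in replicates 1 to 3 of clone 1.1, replicates 1 and 2 of clone 4.1 and replicate 1 of clone 4.2. Ribosomal protein genes took 11.1% to 12.8% in WT and 15.1% to 17.4% in the clones, except 10.6% in clone 1.3 replicate 3. That library and clone 1.2 replicate 3, where the 8 melanocytic markers summed to 45.8 TPM, stood apart from their groups.

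Most calls were in clones of WM115, where FN1 and LOXL2 were called higher and SPP1 lower. In its R4 clones 4.1 and 4.2, FN1 rose and SPP1 fell in both, SPARC and THBS1 rose in 4.1, and LOXL2 and LOXL3 rose in 4.2. In R1 clone 1.2 of the same line FN1 and LOXL2 rose and SPP1 fell. In A375, SPP1 and LOXL2 rose in clone 1.2. In A375 clone 4.1, FN1 and THBS1 were called lower and THBS2 higher only when paired with WT by replicate number. That pairing was chosen from correlations in these same data, so its p-values carry that choice. Without it limma called no member there. In RNA from whole cultures, fewer cells that make a transcript and less of it per cell cannot be told apart.

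Marker sums differed between some of these groups. In WM115 the 8 melanocytic markers summed to 1033 to 2763 TPM in WT, 795 to 1142 in clone 4.1 and 662 to 1067 in clone 4.2. The 3 keratinocyte markers summed to 40.3 to 56.4, 57.3 to 72.3 and 59.8 to 79.2 TPM. These sums were nearly all KRT10, since in WM115 KRT5 was at 0 and KRT14 at 3.65 TPM or less. KRT10 was at 38.8 to 76.7 TPM in WM115 and at 40.0 to 98.4 in A375. The 3 endothelial markers summed to 0.229 to 3.18, 3.06 to 5.0 and 3.28 to 7.46 TPM. The fibroblast sums, nearly all COL1A2, were 459 to 671, 584 to 670.02 and 542 to 741 TPM. The part of these markers in the results was not tested.

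As counts, 4 of 9 tested members were called in WM115 clone 4.1 and 4 of 9 in clone 4.2, where 7.57% and 6.6% of all 16997 genes tested were called. In WM115 clone 1.2, 3 of 9 were called, against 7.61% of all genes. In WM115 clones 1.1 and 1.3 limma called 0 of 9, and 4.88% and 0.618% of all genes. There 3 and 2 members had an unadjusted p under 0.05, as had 35.1% and 13% of all genes. In A375 clone 1.2, 2 of 8 tested members were called, against 4.01% of all 16692 genes. In A375 clones 1.1, 4.1 and 4.2 limma called 0 of 8, and 0.731%, 0.653% and 0.473% of all genes. There 0, 2 and 0 members had an unadjusted p under 0.05, as had 10.1%, 10.5% and 7.77% of all genes. With the pairing of A375 clone 4.1 and WT by replicate number, described with FN1, 3 of 8 were called in that clone. Over all genes that fit called 246, against 109 without pairing. That fit holds only the 2 groups and its own set of tested genes. Its share of all genes is not reported here, so the 3 of 8 cannot be judged against it.

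Members whose libraries lay all above or all below WT were 3, 3, 0, 8 and 6 of 9 in WM115 clones 1.1, 1.2, 1.3, 4.1 and 4.2. The shares of all genes were 23.6%, 28.3%, 11.5%, 36.9% and 32.1%. In A375 clones 1.1, 1.2, 4.1 and 4.2 they were 0, 3, 1 and 0 of 8, against 7.41%, 13.8%, 7.12% and 6.52%. The median log2 difference of the tested members was 0.47, 0.09, 0.35, 0.89 and 1.06 in the WM115 clones, in the same order, where the median of all genes was between -0.12 and -0.02. In the A375 clones it was -0.15, 0.63, 0.12 and -0.13, where that of all genes was between -0.02 and 0.07. The clones of a line share their WT libraries, so their differences from WT are not independent of each other. POSTN was not tested in either line, and LOX was tested in WM115 and not in A375, because too few libraries reached 1 TPM.

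**Figure D1:**
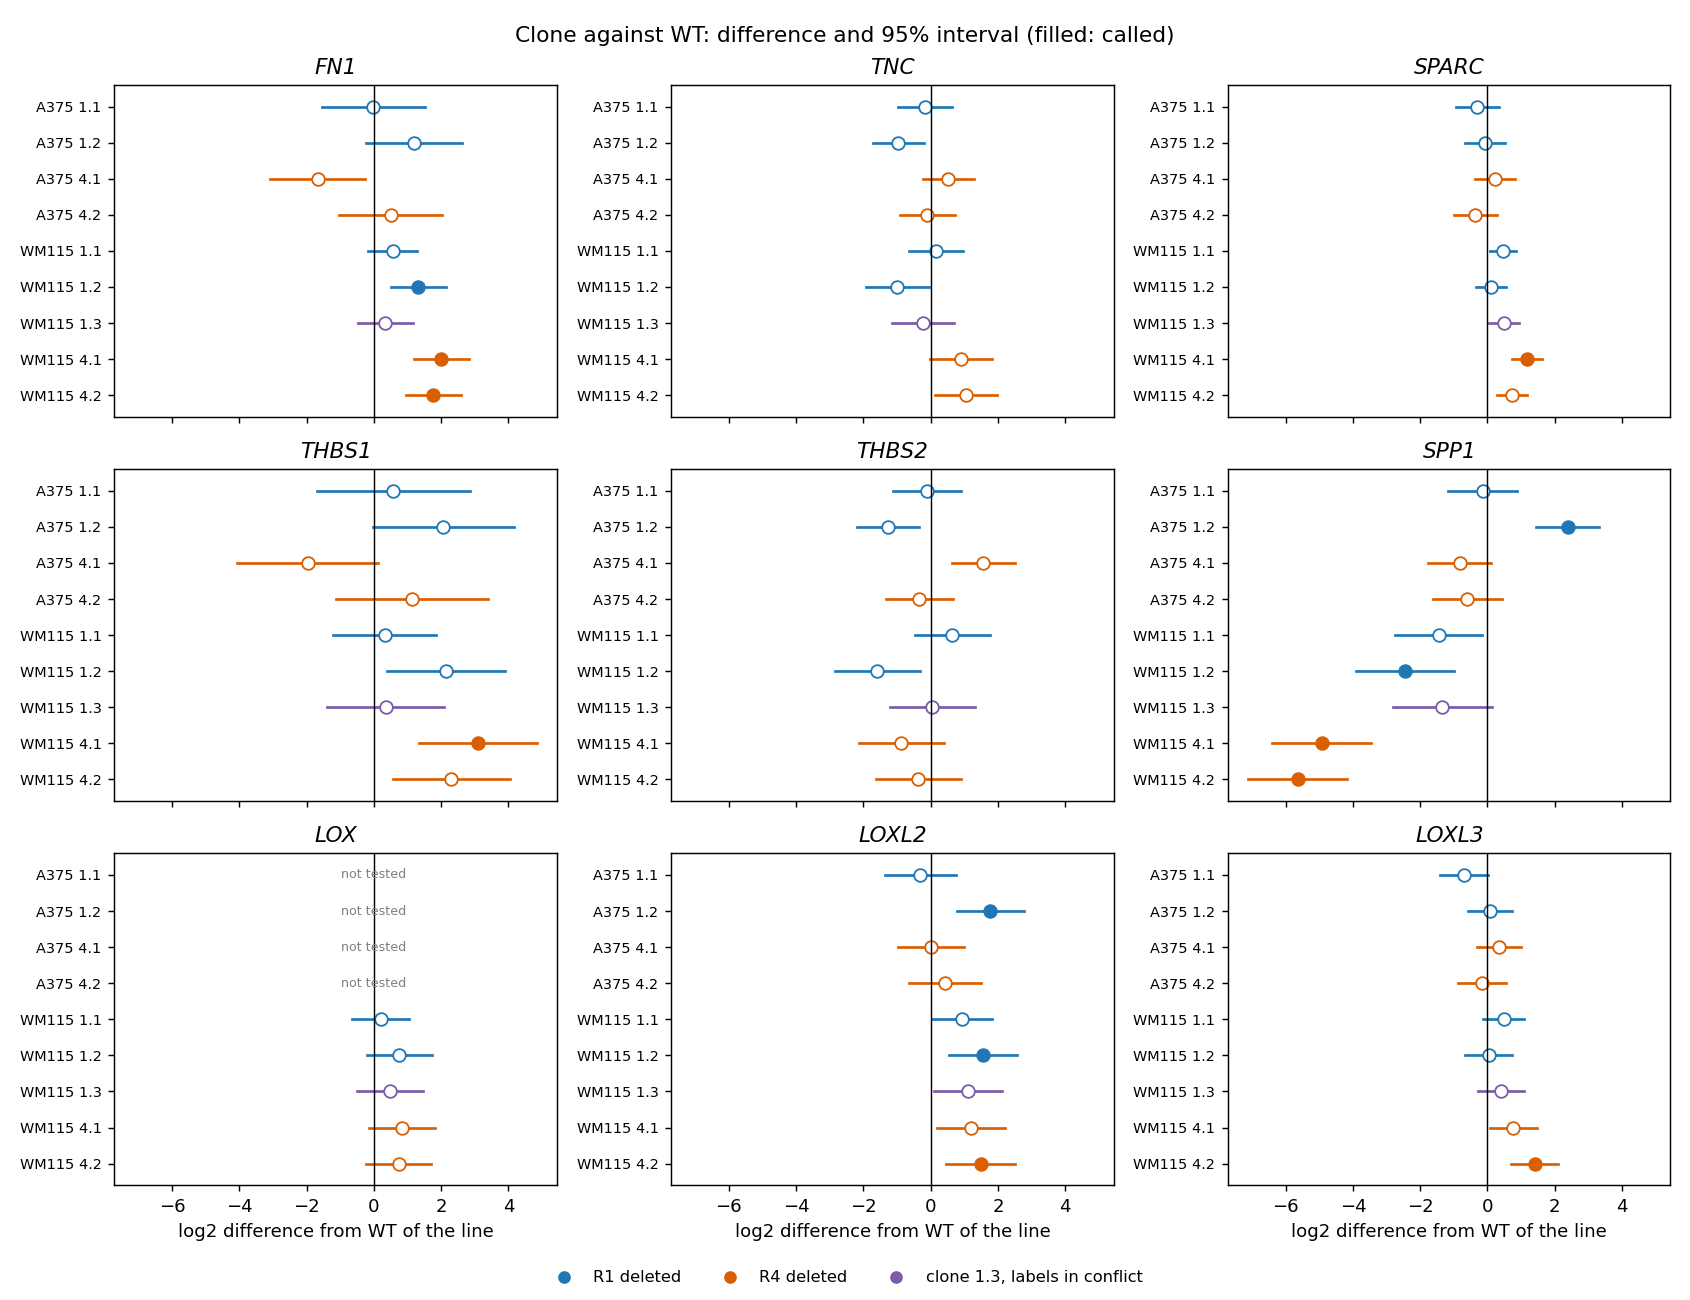
Difference of each clone from WT of its line on the log2(TPM + 1) scale (x axis) with its 95% interval, for 9 genes and 9 clones (rows). Filled points were called: FN1 lies to the right of 0 in WM115 clones 1.2, 4.1 and 4.2, and SPP1 lies far to the left in clones 4.1 and 4.2 of WM115 but to the right in clone 1.2 of A375.

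FN1 (GRCh38, chr2:215360440-215436172, minus strand) encodes fibronectin, the adhesive glycoprotein that cells assemble into fibrils through integrins. In A375 WT its libraries had 38.7, 204, 25.4 and 75.8 TPM in replicate order. In WM115 WT it was at 798, 1108, 1729.9 and 969 TPM, and no library of the A375 WT group reached the lowest of these. The WT lines differed by a log2 of 4.12 ± 0.55 (SE; limma, adjusted p = 0.000226), a 13.4-fold ratio of the means of 1151 ± 406 and 85.9 ± 81.3 TPM (SD, n = 4 each). In that comparison of WT lines 4 of 9 tested members were called, all higher in WM115, against 22.7% of all 16126 genes tested.

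In the R4 clones of WM115 fibronectin RNA rose above every WT library. Clone 4.1 had 4467, 6468 and 3018 TPM and clone 4.2 had 5041, 3289 and 3163 TPM, so neither group overlapped WT. The log2 differences were 2.01 ± 0.39 (SE; limma, adjusted p = 0.00145) and 1.76 ± 0.39 (limma, adjusted p = 0.00456), or 4.04-fold and 3.33-fold by the group means. Clones 4.1 and 4.2 differed from each other by -0.24, with a 95% interval of -1.12 to 0.63. The call in clone 4.2 held under all 17 alternatives tried. Within the libraries of high mitochondrial share, where clone 4.1 has 1 library, the log2 difference of clone 4.1 was 1.45 and limma gave an adjusted p of 0.202.

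FN1 moved less evenly in the other WM115 clones. Clone 1.2 had 2242, 3222 and 2912 TPM, above every WT library, a rise of 1.32 ± 0.39 (log2, SE; limma, adjusted p = 0.0223). That call ended without WT replicate 1, WT replicate 4, clone 1.2 replicate 2 or clone 1.2 replicate 3, where the difference stayed between 1.17 and 1.28 and limma gave adjusted p of 0.0629, 0.0501, 0.0592 and 0.0996. It also ended with no filter on low values and with quantile normalization (limma, adjusted p = 0.0508 and 0.0664). Clone 1.1 had 1691, 1858 and 2780.02 TPM in its libraries of low mitochondrial share and 1079 and 1213 in the others, which lie inside the WT range. Its difference from WT was 0.56 ± 0.34 (limma, adjusted p = 0.256), or 0.05 within the libraries of high mitochondrial share. With the mitochondrial set as a term it was 0.09 (limma, adjusted p = 0.894). In the same fit the rises of clones 4.1 and 4.2 were 1.48 and 1.5 and were called. All WT and clone 1.2 libraries are in the high set, so the term cannot test the 1.32 of clone 1.2. Its libraries had mitochondrial shares of 8.75% to 11.8%, against 13.7% to 15.6% in WT. Clone 1.3 had 915, 2969 and 991 TPM and overlapped WT.

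In A375, clone 1.2 had FN1 at 225, 47.3, 146 and 283 TPM and clone 4.1 at 17.3, 63.1, 10.9 and 10.5 TPM, both overlapping WT. For clone 4.1 the replicate numbers were taken as pairs with WT, a choice made from correlations in these data. In 4 of 4 pairs FN1 of clone 4.1 was the lower value. Its difference of -1.67 was not called without pairing (limma, adjusted p = 0.342) and was called with the replicate number as a block (SE 0.24, limma, adjusted p = 0.00451). In the blocked fit FN1, THBS1 and THBS2 were called, and the calls over all genes went from 109 to 246. Clones 1.1 and 4.2 had 50.5 to 91.9 and 57.0 to 180 TPM.

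TNC (chr9:115019578-115118257, minus strand) encodes tenascin-C, a hexameric glycoprotein that modulates adhesion to fibronectin. Its level was alike in both WT groups, with 452, 815, 313 and 333 TPM in A375 and 462, 551, 538 and 189 TPM in WM115. In WM115 clone 4.1 it was at 756, 848 and 651 TPM and in clone 4.2 at 1120, 778 and 680.4 TPM, above every WT library in both. These differences of 0.89 ± 0.44 and 1.06 ± 0.44 were not called (limma, adjusted p = 0.147 and 0.0938). A375 clone 1.2 had 218, 220.4, 246 and 228 TPM, below every A375 WT library, and its difference of -0.96 ± 0.35 was also not called (limma, adjusted p = 0.115). A375 clone 4.1 had 773, 845, 514 and 494 TPM, above WT in 4 of 4 pairs. Its difference of 0.53 passed on p in the blocked fit (limma, adjusted p = 0.0229) and fell short of the minimum difference.

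WM115 clone 1.2 had TNC at 344, 277 and 86.5 TPM and clone 1.1 at 308 to 575 TPM, and the groups overlapped. Against WT the difference of clone 1.2 was -0.99 (limma, adjusted p = 0.113), and it was called without WT replicate 4 or clone 1.2 replicate 1, at -1.35 and -1.37 (limma, adjusted p = 0.0364 and 0.0445). It was -0.38 without clone 1.2 replicate 3 (limma, adjusted p = 0.619). Between these clones of the R1 deletion TNC was lower in 1.2 by a log2 of -1.14 ± 0.42 (limma, adjusted p = 0.0416), a comparison in which 2 of 9 members and 11.8% of all genes were called. The lowest value is the library of few melanocytic markers, replicate 3. Without it the difference was -0.53 and limma gave an adjusted p of 0.381. Without clone 1.1 replicate 1, 2 or 3 the adjusted p by limma was 0.0809, 0.0776 and 0.0792.

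The lines carried different forms of TNC. In GENCODE 29 (GRCh38), 7 alternative exons of the gene on chromosome 9, coding for fibronectin type III repeats, met the rule used here. Each is held whole by more than 1 transcript, is skipped by more than 1 and has a length that keeps the reading frame. Exons outside this rule were not examined. Of the TNC transcripts, 5 reached 5% of TNC in some group. Exon 1 (chr9:115064647-115064919, minus strand) and exon 4 (chr9:115059730-115060002) are shown because they mark this difference and are nearly copies of each other. They are 273 bases each, 5′ to 3′ in the sense of the transcript, and the capitals in exon 4 are the 31 bases that differ from exon 1, an identity of 88.6%.
TNC exon 1: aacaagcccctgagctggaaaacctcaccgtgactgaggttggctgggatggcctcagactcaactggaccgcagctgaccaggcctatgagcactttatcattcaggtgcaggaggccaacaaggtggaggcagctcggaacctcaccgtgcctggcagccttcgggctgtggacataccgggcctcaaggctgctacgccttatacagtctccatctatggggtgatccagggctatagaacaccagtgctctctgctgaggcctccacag
TNC exon 4: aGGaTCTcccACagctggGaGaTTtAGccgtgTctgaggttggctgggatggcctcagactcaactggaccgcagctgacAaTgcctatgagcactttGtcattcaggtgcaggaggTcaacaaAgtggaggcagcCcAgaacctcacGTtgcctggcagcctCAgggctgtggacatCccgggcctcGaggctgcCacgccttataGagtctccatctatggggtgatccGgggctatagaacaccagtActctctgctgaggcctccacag

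The share of a given exon was taken as the TPM of transcripts that hold it over the TPM of all transcripts that span it. Exon 1 was held by 78.6% to 87.5% of that TPM in the 18 A375 libraries and by 14.7% to 39.5% in the 21 WM115 libraries, so the lines did not overlap. Exon 4 gave 77.6% to 84.9% and 14.4% to 38.8%. Exons 5 and 7 were at medians of 59.1% and 59.2% in A375 against 24.9% and 25.8% in WM115. Exon 3 was at 46.2% against 14.3%, and exon 6 was rare in both, at 1.34% and 2.06%. TNC-211, a transcript of 20 exons with none of the 7, made up 60.5% ± 4.03 of TNC in WM115 WT and 14.8% ± 2.0 in A375 WT (SD, n = 4 each). TNC-201, which holds exons 1, 2, 4, 5 and 7, made up 10.5% ± 2.19 and 32% ± 2.18. The short transcript TNC-209, of 3 exons, also holds none of the 7.

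For exon 1 the group means of a line lay closer together than the lines. In WM115 its share was 18.7% to 34.1% in WT, 32.4% to 39.5% in clone 1.2 and 14.7% to 26.5% in clone 1.3, and in A375 every group mean lay between 81.7% and 84.7%. Exon 6 varied within WM115, from a mean of 1.77% in clone 1.1 to 5.02% in clone 4.1. Transcript shares are estimates by the authors' software from reads that several transcripts share, so they are given without a test.

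**Figure D2:**
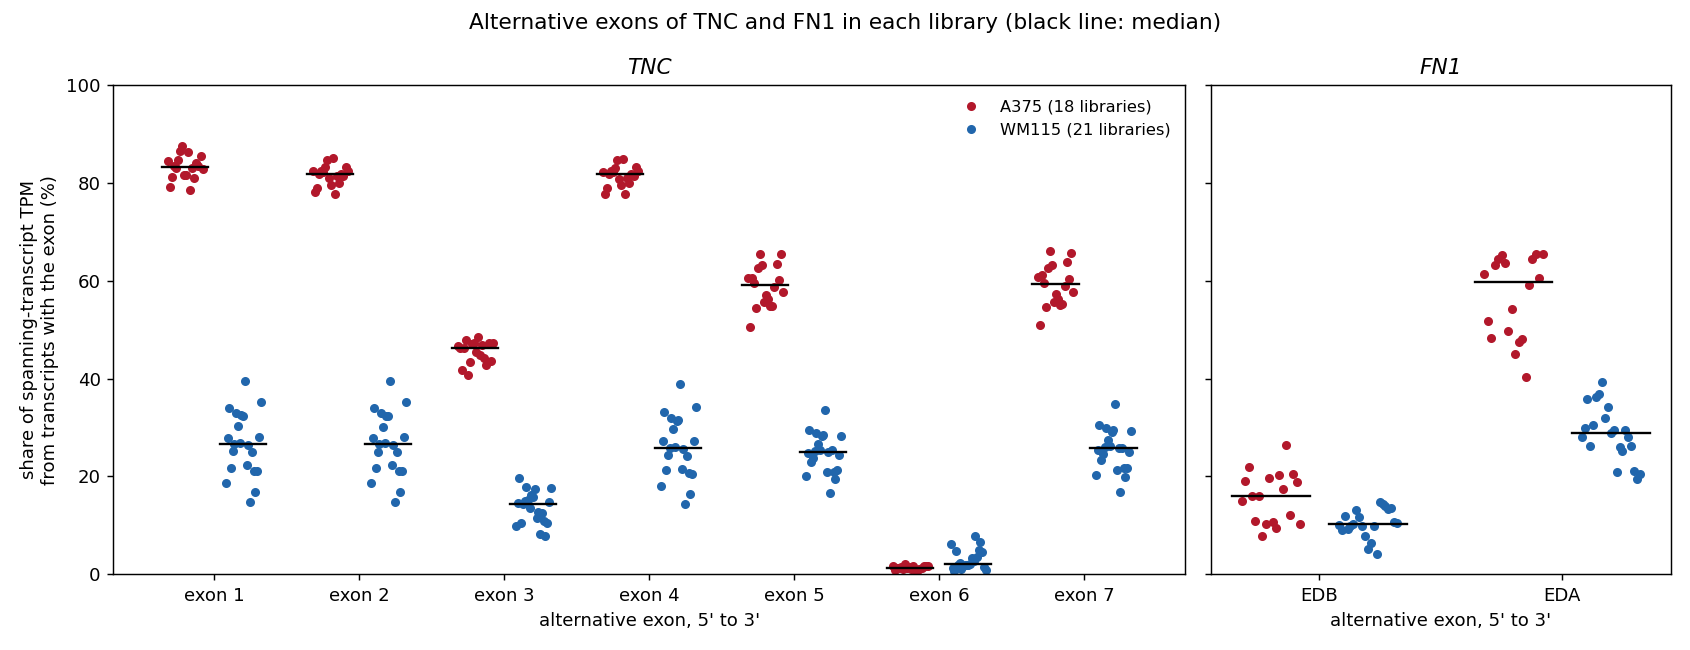
Share of the TPM of spanning transcripts that comes from transcripts holding each alternative exon (y axis, percent), for 7 exons of TNC and 2 of FN1 (x axis), with 1 point per library in A375 (red) and WM115 (blue) and the median as a black line. For TNC exon 1 the A375 points lie at 78.6% or above and the WM115 points at 39.5% or below.

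Fibronectin has its own alternative type III repeats, extra domains A and B, whose inclusion marks the form that cells lay down in embryos, wounds and tumours. The exons are shown because the lines differ in them too: EDB, 273 bases, at chr2:215392931-215393203, and EDA, 270 bases, at chr2:215380811-215381080, both on the minus strand of GRCh38 and written in the sense of the transcript.
FN1 EDB exon: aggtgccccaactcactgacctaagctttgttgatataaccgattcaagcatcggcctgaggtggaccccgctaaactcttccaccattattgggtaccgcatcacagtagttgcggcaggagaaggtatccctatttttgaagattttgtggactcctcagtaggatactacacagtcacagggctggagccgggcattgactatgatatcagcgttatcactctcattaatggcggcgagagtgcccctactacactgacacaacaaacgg
FN1 EDA exon: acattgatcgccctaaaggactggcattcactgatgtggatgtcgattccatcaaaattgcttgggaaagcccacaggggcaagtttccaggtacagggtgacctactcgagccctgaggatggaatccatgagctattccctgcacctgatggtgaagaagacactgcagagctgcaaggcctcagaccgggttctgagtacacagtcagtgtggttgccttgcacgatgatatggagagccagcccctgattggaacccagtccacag

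Transcripts with all or part of EDA made up 40.3% to 65.5% of the spanning FN1 TPM in A375 and 19.5% to 39.2% in WM115, so the highest WM115 library lay just under the lowest of A375. WT means were 56.1% ± 7.32 and 29.9% ± 4.24 (SD, n = 4 each). In WM115 clone 4.2 the share was 19.5% to 21.1%, under the WT range of 26.1% to 35.9%, while the level of FN1 was 3.33-fold that of WT. Clone 4.1, with a similar rise in level, had 26.3% to 29.4%, inside the WT range. Clone 1.3, where FN1 was not called, had 21.0% to 26.0%, also under that range. EDB was held by 7.75% to 26.5% in A375 and 4.04% to 14.7% in WM115, which overlap. In WM115 it was held by 9.09% to 12.0% in WT, 13.4% to 14.4% in clone 4.1 and 5.11% to 7.79% in clone 1.2.

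SPARC (chr5:151661096-151687165, minus strand) encodes osteonectin, a collagen-binding protein that counters cell spreading, and was the most abundant member by TPM in every group. WT libraries had 3137, 3198, 3061 and 2090.4 TPM in A375 and 3297, 2975, 2833 and 2782 TPM in WM115. The WT lines differed by a log2 of 0.07, with a 95% interval of -0.34 to 0.48.

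WM115 clone 4.1 had SPARC at 6705, 6453 and 6773 TPM, more than the WT libraries by a log2 of 1.16 ± 0.21 (SE; limma, adjusted p = 0.000933). Clone 4.2 had 5983, 4336 and 4606 TPM, also above every WT library. Its difference of 0.73 ± 0.21 passed on p (limma, adjusted p = 0.0213) and fell short of the minimum difference. With the set of mitochondrial share as a term the difference in clone 4.1 was 0.95, under the minimum, with an adjusted p of 0.00775 by limma. Within the libraries of high share it was 1.19, with 1 library of the clone and a limma adjusted p of 0.0977. WM115 clone 1.1 had 3302 to 5077 TPM, above WT, with a difference of 0.47 (limma, adjusted p = 0.0819). WM115 clones 1.2 and 1.3 were at 2727 to 3942 and 2714 to 5368 TPM and overlapped WT. In A375 all groups overlapped WT.

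THBS1 (chr15:39581079-39599466, plus strand) and THBS2 (chr6:169215780-169254044, minus strand) encode thrombospondins 1 and 2, secreted trimers that bind CD36 and CD47 and restrain blood vessel growth, the former also an activator of latent TGF-beta. THBS1 varied widely among replicates. A375 WT had 189, 71.8, 61.2 and 813 TPM and WM115 WT had 32.2, 41.5, 243 and 27.0 TPM. In WM115 clone 4.1 it was at 459, 806 and 287 TPM, above every WT library, a rise of 3.09 ± 0.84 (log2, SE; limma, adjusted p = 0.0126). The rise was 2.71 without clone 4.1 replicate 2 and 2.57 with the mitochondrial set as a term, and neither was called (limma, adjusted p = 0.0644 and 0.0711).

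Clone 4.2 of WM115 had THBS1 at 285, 164 and 442 TPM, and its difference of 2.31 ± 0.84 was not called (limma, adjusted p = 0.0575). WT replicate 3 overlaps that range, and without that library the difference was 3.02 (limma, adjusted p = 0.0107). Clone 1.2 had 445, 143 and 231 TPM, a difference of 2.14 that was not called (limma, adjusted p = 0.0708) and that was 2.85 without WT replicate 3 and 2.19 without clone 1.2 replicate 3 (limma, adjusted p = 0.0175 and 0.188). The WT lines differed by -1.54 (limma, adjusted p = 0.176), and by -2.25 without WM115 WT replicate 3 (limma, adjusted p = 0.0425). Clone 1.1 was at 25.8 to 153 TPM and clone 1.3 at 12.1 to 211 TPM.

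In A375 the range of THBS1 within a clone was wide: 61.7, 184 and 1244 TPM in clone 1.1, and 109, 390 and 1042 TPM in clone 4.2. Clone 1.2 was even, at 492, 881, 698 and 699 TPM, and overlapped WT through WT replicate 4. Clone 4.1 had 45.2, 16.3, 16.9 and 211 TPM and lay under WT in each of 4 pairs. With the replicate block its difference of -1.96 had a SE of 0.07 (limma, adjusted p = 7.62e-05), against 0.99 and no call without it. Clone 4.2 exceeded clone 4.1 by 3.09 (limma, adjusted p = 0.114), or by 3.87 without clone 4.1 replicate 4 (limma, adjusted p = 0.0405).

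THBS2 ran the other way. In A375 it was at 2.5, 3.4, 7.04 and 1.09 TPM in WT and at 9.02, 17.5, 12.2 and 7.12 TPM in clone 4.1, a difference of 1.56 with no overlap. It was not called without pairing (limma, adjusted p = 0.107) and was called with the replicate block (limma, adjusted p = 0.00371). Clone 1.2 had 0.366 to 0.931 TPM, below every WT library, with a difference of -1.27 (limma, adjusted p = 0.0895), or -1.58 without WT replicate 4 (limma, adjusted p = 0.0394). Against clone 1.1 it was -1.67 without clone 1.1 replicate 3 (limma, adjusted p = 0.0386) and was not called with it.

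Between the R4 clones of A375, THBS2 was lower in 4.2, at 3.68, 3.36 and 0.587 TPM, than in 4.1, by a log2 of -1.90 ± 0.47 (limma, adjusted p = 0.0349). It was the 1 member of 8 called there, where 2.23% of all genes were called. The adjusted p by limma was 0.0639, 0.107 and 0.0928 without clone 4.1 replicate 1, 2 or 3, and 0.0714 and 0.235 without clone 4.2 replicate 2 or 3. With a pseudocount of 0.1 and with no filter it was 0.0599 and 0.0871.

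In WM115, THBS2 was at 16.6, 9.67, 4.07 and 15.8 TPM in WT, at 8.37 to 35.1 TPM in clone 1.1 and at 3.91, 6.58 and 0.408 TPM in clone 1.2. The difference of clone 1.2 from WT, -1.59 (limma, adjusted p = 0.0633), was called without WT replicate 3 or clone 1.2 replicate 2, at -1.97 and -2.10 (limma, adjusted p = 0.0284 and 0.027). It was -0.88 without clone 1.2 replicate 3 (limma, adjusted p = 0.4). Clone 1.2 was below clone 1.1 by -2.23 ± 0.57 (log2, SE; limma, adjusted p = 0.00574) with no overlap. Without clone 1.2 replicate 3 that difference was -1.53 (limma, adjusted p = 0.0723). WM115 WT exceeded A375 WT by 1.49 ± 0.47 (limma, adjusted p = 0.0255), although the ranges overlap. That call ended without A375 WT replicate 1 or 4 and without WM115 WT replicate 1, 2 or 4, where limma gave adjusted p of 0.0635, 0.0627, 0.0731, 0.0518 and 0.0724.

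Library by library the thrombospondins mirrored each other. In clone 1.1 of A375, THBS2 was at 4.90 and 3.80 TPM where THBS1 was at 61.7 and 184, and at 0.811 TPM where THBS1 was at 1244. In clone 4.2 it was at 0.587 TPM where THBS1 was at 1042. The Pearson correlation of the 2 on the log2(TPM + 1) scale was -0.93 over the 18 A375 libraries and -0.68 over the 21 of WM115. After the mean of each group was subtracted it was -0.90 and -0.60. Within the sets of low and high mitochondrial share it was -0.92 and -0.95 in A375 and -0.92 and -0.79 in WM115. Libraries of a clone and replicates of a group are not independent points, and these values carry no test.

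**Figure D3:**
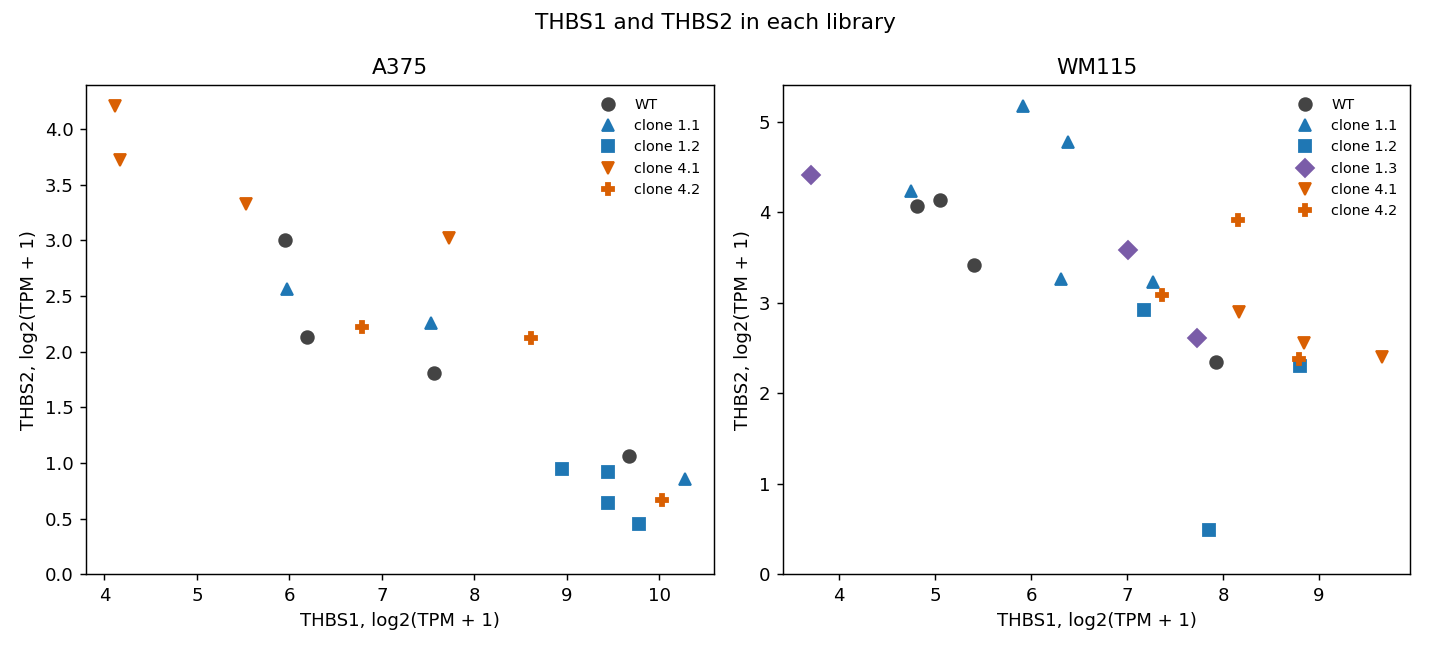
THBS2 (y axis) against THBS1 (x axis), both as log2(TPM + 1), in each library of A375 (left) and WM115 (right), with the symbol for the clone and the colour for WT (grey), R1 deletion (blue), R4 deletion (orange) and clone 1.3 (purple). Points run from upper left to lower right in both lines, at a correlation of -0.93 in A375 and -0.68 in WM115.

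SPP1 (chr4:87975650-87983426, plus strand) encodes osteopontin, a secreted phosphoprotein that binds CD44 and several integrins, and showed the largest log2(TPM + 1) difference of any member from WT. WM115 WT had 624, 546, 403 and 896 TPM. R4 clone 4.1 had 8.62, 29.2 and 24.8 TPM and clone 4.2 had 12.0, 13 and 8.2 TPM. Neither overlapped WT, and every library of both clones was below 30 TPM. The log2 differences were -4.92 ± 0.70 and -5.64 ± 0.70 (SE; limma, adjusted p = 9.92e-05 and 4.51e-05), so the WT mean was 29.6-fold and 55.8-fold that of the clones. The clones differed from each other by -0.72, with a 95% interval of -2.29 to 0.85. Within the libraries of high mitochondrial share the differences were -4.52, with 1 library of clone 4.1 (limma, adjusted p = 0.0767), and -5.71 (limma, adjusted p = 0.00561).

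The R1 clones of WM115 lay between. Clone 1.1 had SPP1 at 178, 280, 105, 299 and 307 TPM, all below WT, with a difference of -1.45 ± 0.62 that was not called (limma, adjusted p = 0.1). Clone 1.2 had 80.0, 322 and 47.9 TPM, a fall of 2.45 on the log2 scale (SE 0.70, limma, adjusted p = 0.0192). Without clone 1.2 replicate 3 the difference was -1.88 (limma, adjusted p = 0.15), and without replicate 1 it was -2.24 (limma, adjusted p = 0.052). Clone 1.3 had 157, 78.0 and 1031 TPM, and the last, the library with a WT-like share of ribosomal protein RNA, exceeded every WT library. With it the difference was -1.34 (limma, adjusted p = 0.43), and without it -2.41 (limma, adjusted p = 0.031). Of the leukocyte markers, PTPRC was at 0.483 TPM or less and CD14 at 1.19 or less in all WM115 libraries, and CD68, which encodes a lysosomal protein, was at 225 to 757 TPM.

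In A375 osteopontin was scarce and moved in another clone. WT had 4.27, 9.55, 3.5 and 3.61 TPM, and R1 clone 1.2 had 51.7, 18.0, 48.4 and 16.3 TPM, with no overlap. The rise was 2.38 ± 0.45 (log2, SE; limma, adjusted p = 0.00246), and against clone 1.1 it was 2.53 ± 0.48 (limma, adjusted p = 0.00237), where 2 of 8 members and 6.16% of all genes were called. Within the libraries of low mitochondrial share, 2 of clone 1.2 and 3 of WT, the difference from WT was 2.32 (limma, adjusted p = 0.135). Clones 4.1 and 4.2 had 1.3 to 3.64 and 1.47 to 5.1 TPM, both overlapping WT. Clone 4.1 was the lower in 4 of 4 pairs, by -0.83, which passed on p in the blocked fit (limma, adjusted p = 0.0211) and fell short of the minimum difference. The WT lines differed by 6.67 ± 0.31 (limma, adjusted p = 2.08e-07), a 118-fold ratio of means.

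**Figure D4:**
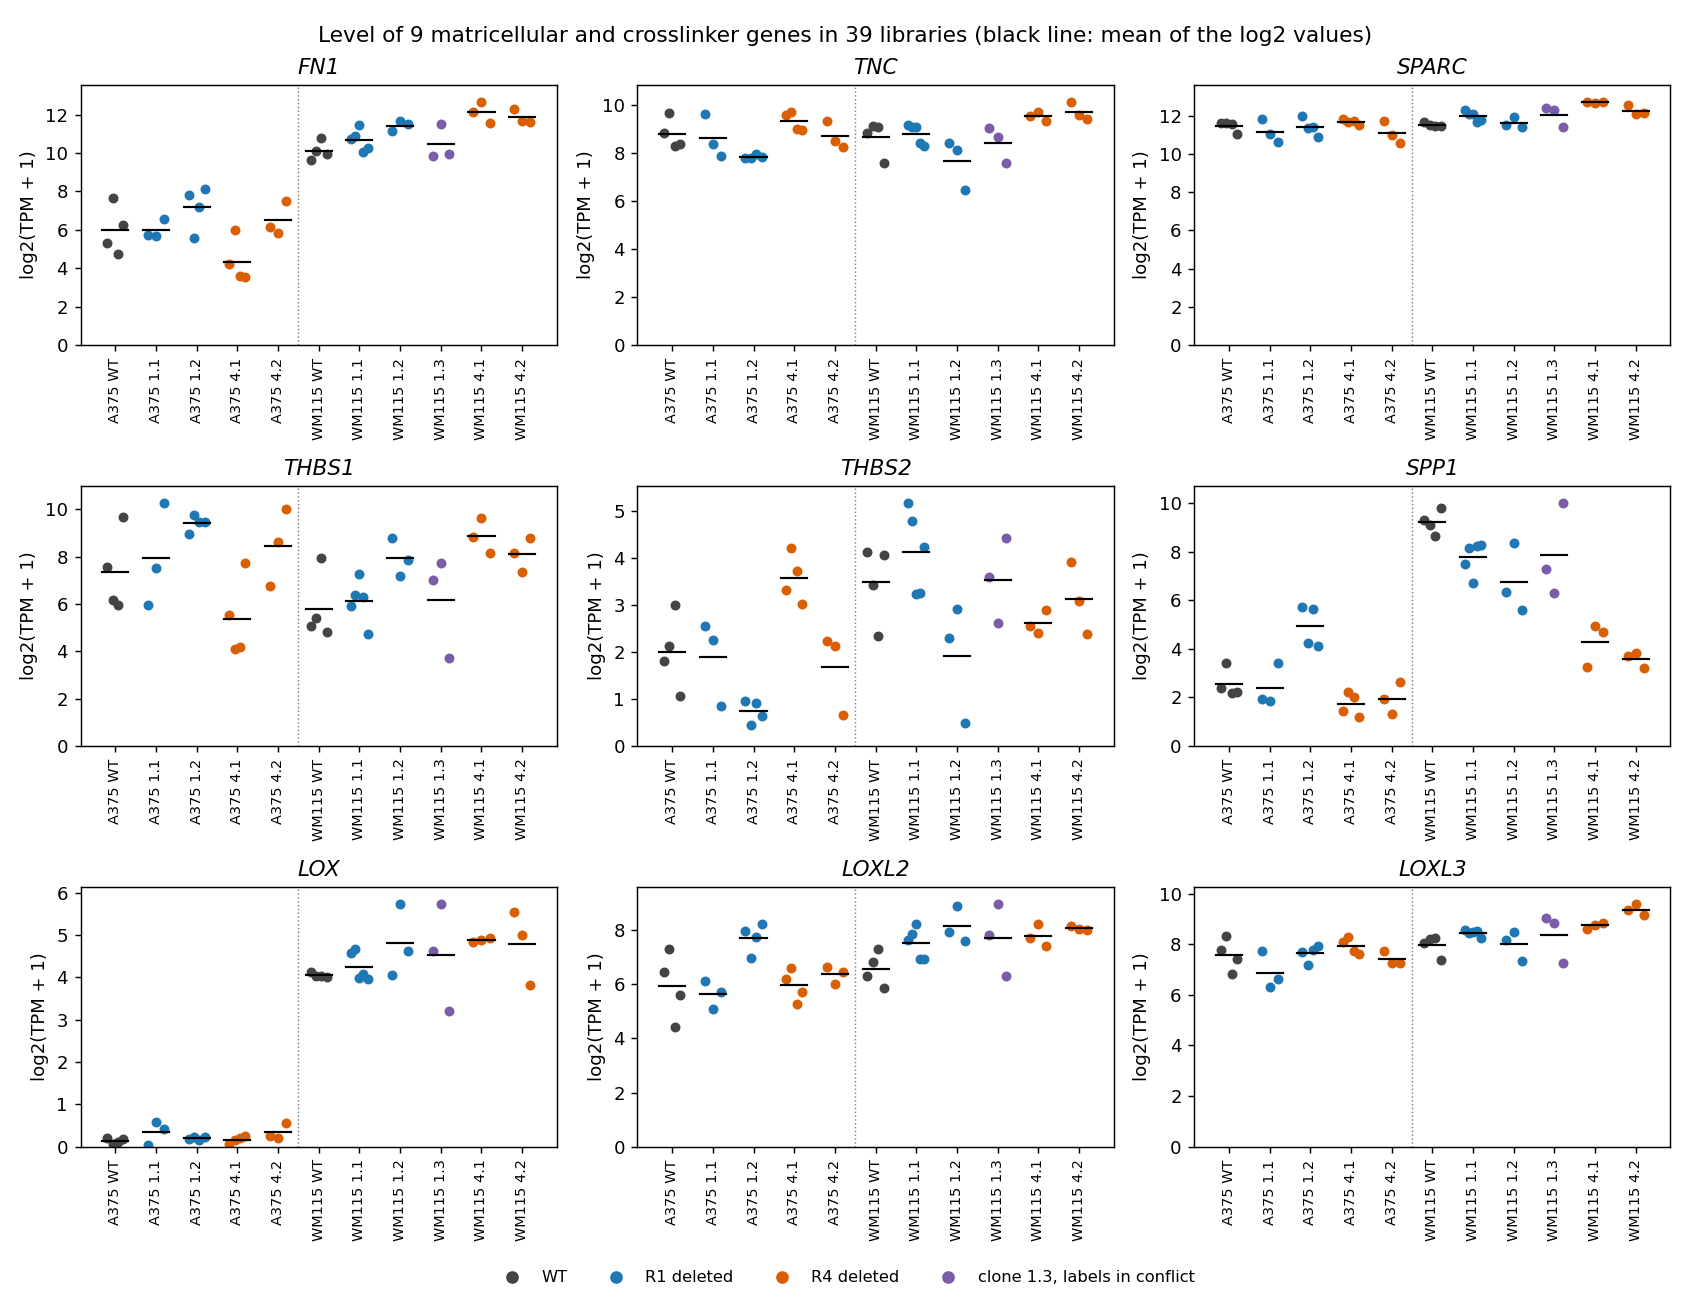
Level of 9 members as log2(TPM + 1) (y axis) in each of 39 libraries, grouped by line and clone (x axis), with colour for WT, R1 deletion, R4 deletion and clone 1.3 and a black line for the mean of the log2 values. SPP1 falls from WT at 403 TPM or more to 29.2 TPM or less in the orange groups of WM115, and LOX separates the lines with no overlap.

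The start regions of SPP1 and THBS1 are shown because these genes had the largest falls and rises among members and because both lie upstream of every annotated transcript. Letters are from RefSeq on GRCh38.p14, plus strand: chr4:87975464-87975649 for SPP1 and chr15:39580829-39581078 for THBS1. Capitals mark AACCACA, the core that RUNX factors bind, in SPP1 and GGAATG, the core that TEAD factors bind, in THBS1.
SPP1 upstream: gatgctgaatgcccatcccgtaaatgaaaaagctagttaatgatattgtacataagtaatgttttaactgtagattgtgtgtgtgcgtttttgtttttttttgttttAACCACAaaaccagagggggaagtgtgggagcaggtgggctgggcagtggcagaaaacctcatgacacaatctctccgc
THBS1 upstream: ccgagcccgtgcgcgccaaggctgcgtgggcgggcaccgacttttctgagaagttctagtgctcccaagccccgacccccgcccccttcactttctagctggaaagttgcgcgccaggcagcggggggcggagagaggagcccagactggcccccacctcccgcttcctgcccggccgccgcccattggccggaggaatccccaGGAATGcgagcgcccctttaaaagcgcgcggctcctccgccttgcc

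The search covered the 250 bases before the RefSeq start on both strands, in 12 entries for 9 members. SOX cores were searched as ACAATG and as ACAAAG, E-boxes as CATGTG and as CACGTG, the AP-1 site as TGANTCA and the TATA box as TATAA, beside the RUNX and TEAD cores. AACCACA was found in SPP1 at 143 bases before the start, and 3.65% of all 35116 promoters hold it. GGAATG was found in THBS1, THBS2, SPARC and LOXL3, against 11.9% of all promoters, and TATAA in FN1, TNC, THBS2 and POSTN, against 18.9%. CATGTG was found in LOXL3 and TGANTCA in POSTN, against 9.42% and 6.57%. Found in none of the 9 were ACAATG, which 9.29% of promoters hold, the other SOX core ACAAAG, which 13.7% hold, and the E-box CACGTG, which 6.34% hold. A match is only a run of letters, and no match says only that the letters are not in this window.

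POSTN (chr13:37562583-37598844, minus strand) encodes periostin, a matricellular ligand of integrins made by fibroblasts. It was at 0 in every WM115 library and in A375 clones 1.1, 4.1 and 4.2. A375 clone 1.2 had 0.916, 0.209, 0.83 and 0.636 TPM, and WT replicates 1 and 2 had 0.071 and 0.107. The 7 fibroblast markers summed to 10.1 to 14.3 TPM in clone 1.2 of A375 and to 3.05 to 6.56 in WT. Its part in the value of POSTN was not tested.

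LOX (chr5:122063195-122078360, minus strand), the founding lysyl oxidase, separated the lines. Every A375 library was below 0.5 TPM, and WM115 WT had 16.4, 15.3, 15.3 and 15.1 TPM. The WT difference was 3.91 ± 0.13 (log2, SE; limma, adjusted p = 2.53e-08), or 6.29 with a pseudocount of 0.1. WM115 clone 4.1 had 27.6, 28.4 and 29.5 TPM, above WT, with a difference of 0.83 ± 0.46 (limma, adjusted p = 0.201). Clone 1.2 had 15.8, 52.3 and 23.6 TPM, clone 1.3 had 23.6, 52.7 and 8.28 TPM and clone 4.2 had 45.5, 31.3 and 13.2 TPM, all with wide spread and none called.

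LOXL2 (chr8:23297189-23425328, minus strand) encodes a lysyl oxidase that crosslinks collagen IV. WT had 85.9, 155, 20.6 and 47.9 TPM in A375 and 77.8, 113, 158 and 57.3 TPM in WM115. WM115 clones were higher: 242, 478 and 194 TPM in clone 1.2, 209, 298 and 169 TPM in clone 4.1 and 282, 262 and 256 TPM in clone 4.2, each above every WT library. The rises in clones 1.2 and 4.2 were 1.57 ± 0.48 and 1.48 ± 0.48 (limma, adjusted p = 0.0273 and 0.0367), and the difference in clone 4.1, 1.2 ± 0.48, was not called (limma, adjusted p = 0.0777). Without WT replicate 3 the last was 1.45 (limma, adjusted p = 0.044).

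These calls lie close to the threshold. In clone 1.2 of WM115 the call for LOXL2 ended without WT replicate 1 or 4 and without clone 1.2 replicate 2 or 3, with differences of 1.47, 1.33, 1.19 and 1.84 (limma, adjusted p = 0.0638, 0.0753, 0.113 and 0.0559), and with no filter (limma, adjusted p = 0.0591). In clone 4.2 it ended without WT replicate 1, 2 or 4 and without any 1 library of the clone, with differences between 1.25 and 1.57 and limma adjusted p between 0.0546 and 0.109. With no filter and with the mitochondrial set as a term the adjusted p by limma was 0.0865 and 0.0697. Clone 1.3 had 223, 504 and 77.2 TPM, a difference of 1.12 (limma, adjusted p = 0.333), or 1.82 without replicate 3 (limma, adjusted p = 0.0249). Clone 1.1 had 200, 229 and 295 TPM in its libraries of low mitochondrial share and 121 and 122 in the others, which WT overlaps.

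In A375 clone 1.2, LOXL2 was at 247, 125, 213 and 296 TPM, higher than WT by 1.78 ± 0.47 (limma, adjusted p = 0.0238) although WT replicate 2 lies in its range. The difference without WT replicate 3 or 4 was 1.27 and 1.67 (limma, adjusted p = 0.0805 and 0.0625). Without clone 1.2 replicate 1, 3 or 4 it was 1.70, 1.77 and 1.61 (limma, adjusted p = 0.0652, 0.0594 and 0.0852). With no filter the adjusted p by limma was 0.0521, and within the libraries of low mitochondrial share the difference was 1.02 (limma, adjusted p = 0.574). Clone 1.1 was at 33.2 to 68.1 TPM, below every library of clone 1.2, and the clones differed by 2.09 ± 0.50 (limma, adjusted p = 0.0119), or 1.82 without clone 1.1 replicate 2 (limma, adjusted p = 0.0726). Clones 4.1 and 4.2 were at 37.7 to 97.2 and 63.9 to 97.7 TPM, inside the WT range.

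LOXL3 (chr2:74532414-74555690, minus strand) encodes a lysyl oxidase known for a role in melanoma cell survival. WM115 WT had 263, 294, 306 and 164 TPM and clone 4.2 had 651, 779 and 572 TPM, with no overlap and a rise of 1.40 ± 0.33 (log2, SE; limma, adjusted p = 0.00646). Clone 4.1 had 390, 437 and 459 TPM, also above WT, with a difference of 0.77 ± 0.33 (limma, adjusted p = 0.094). The difference between these R4 clones was 0.63, with a 95% interval of -0.11 to 1.37, and limma called 2.63% of all genes and 0 of 9 members between them, with 0 members at an unadjusted p under 0.05 beside 21.3% of all genes. Within the libraries of high mitochondrial share the rise in clone 4.2 was 1.41 (limma, adjusted p = 0.076). In A375 all groups overlapped WT, at 78.5 to 316 TPM. Clone 1.2 exceeded clone 1.1 by 1.19 without clone 1.1 replicate 1 (limma, adjusted p = 0.0241) and was not called with it. HTRA2 and DOK1, on the opposite strand, share 14.3% and 4.95% of the exonic bases of LOXL3. No step that keeps the strand is described for these libraries, so reads there cannot be assigned to 1 gene. The same holds for stretches that THBS1 shares with FSIP1 (4.89%) and AC037198.2 (4.49%) and SPARC with CLMAT3 (7.89%). It also holds for LOX with SRFBP1 (2.49%), TNC with DEC1 (1.34%) and LOXL2 with AC090197.1 (3.12%). LOXL2 shares a further 2.10% with ENTPD4 on the same strand, where the strand could not tell the genes apart.

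Over the 8 clones of known region, with the line as a term, R4 and R1 clones were compared with the clone as the unit. Limma called 0 of 8 tested members and 0% of all 15287 genes. At an unadjusted p under 0.05 were 3 members and 4.3% of all genes. SPP1 was lower in R4 clones by -2.58 (95% interval -3.87 to -1.30), TNC was higher by 1.08 (0.40 to 1.77) and LOXL3 by 0.61 (0.06 to 1.16), each with an adjusted p of 0.996 by limma. FN1 differed by -0.12, with an interval of -1.45 to 1.22. In A375 the clone furthest from WT in SPP1 and TNC was R1 clone 1.2. Its mean SPP1 was 33.6 TPM, beside 5.01, 2.42 and 3.12 in clones 1.1, 4.1 and 4.2 and 5.23 in WT. Its mean TNC was 228 TPM, beside 455, 656 and 437 in those clones and 478 in WT. Neither R4 clone of A375 was called for these genes against WT.

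Among 26 other matricellular genes, 16 were tested in each line. In WM115, 3 were called higher and 3 lower in clone 4.1, 4 higher and 3 lower in clone 4.2, 5 higher in clone 1.2, 3 higher and 1 lower in clone 1.1 and 1 higher in clone 1.3. The shares of all genes called there were 7.57%, 6.6%, 7.61%, 4.88% and 0.618%. In clone 1.2, 1 was called higher without its replicate 3. Without WT replicate 4 the genes called higher were 1 in clone 1.1 and 2 in clone 4.1, and without WT replicate 3 they were 5 in clone 4.1. Without clone 4.1 replicate 1 or 2 they were 2 in clone 4.1, with 2 lower. In A375, 3 were called higher in clone 1.2, where 4.01% of all genes were called, and 0 in the others. Median log2 differences of the tested genes were 0.52 and 0.57 in WM115 clones 4.1 and 4.2, beside -0.10 over all genes. EFEMP1, which encodes the elastic-fibre protein fibulin-3, was at 3.78 ± 2.24 TPM in WM115 WT (SD, n = 4) and rose to 10.7 ± 1.54 and 9.48 ± 1.28 in clones 4.1 and 4.2 (n = 3 each). It fell to 0.646 ± 0.412 in clone 1.1 (n = 5) and rose in A375 clone 1.2. The last call ended without WT replicate 2 or 3 or clone 1.2 replicate 1, 3 or 4, at 1.53 to 1.95 (limma, adjusted p between 0.0638 and 0.11). CCN5, a growth-restraining CCN protein, fell from 19.4 ± 4.7 TPM in WM115 WT to 2.95 ± 0.819 and 0.859 ± 0.389 in clones 4.1 and 4.2, the clones in which SPP1 fell furthest. Without clone 4.1 replicate 1 the difference of CCN5 in that clone was -2.18 (limma, adjusted p = 0.0706).

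LGALS1, the glycan-binding galectin-1, rose from 823 ± 306 TPM in WM115 WT to 1781 ± 458 in clone 1.1, 1797 ± 237 in clone 4.1 and 2108 ± 215 in clone 4.2. SPOCK1, the proteoglycan testican-1, rose from 5.24 ± 2.4 TPM to 21.5 ± 8.1 in clone 1.1 and 120.4 ± 111 in clone 1.2. The adjusted p of these 2 genes by limma were 0.0121, 0.019 and 0.00825 for LGALS1 and 0.0263 and 0.000748 for SPOCK1. The calls of LGALS1 in clones 1.1 and 4.1 ended without WT replicate 4 (limma, adjusted p = 0.051 and 0.0642), and in 4.1 also without its replicate 1 or 2 (limma, adjusted p = 0.0505 and 0.0774). The call of SPOCK1 in clone 1.1 ended without WT replicate 2 or 4 or clone 1.1 replicate 3 (limma, adjusted p = 0.06, 0.0907 and 0.0677). In clone 1.2 SPOCK1 rose by 3.995 on the log2 scale, or by 3.28 without replicate 3 (limma, adjusted p = 0.00903).

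Of 14 other crosslinking and collagen maturation genes, 14 were tested in WM115 and 13 in A375. In WM115, 3 were called higher and 1 lower in clone 4.1, 2 higher in clone 4.2, 2 higher in clone 1.2 and 2 lower in clone 1.1, and in A375 1 was higher in clone 1.2. Clone 1.3 of WM115 and the other A375 clones had 0. The shares of all genes called were 7.57%, 6.6%, 7.61%, 4.88% and 4.01%, in the order of the clones with calls. LOXL1, the elastin crosslinker, was at 0.071 ± 0.0632 TPM in WM115 WT and was called higher in clone 1.2 at 4.16 ± 1.99, in clone 4.1 at 1.73 ± 0.435 and in clone 4.2 at 1.17 ± 0.38 TPM. Without clone 1.2 replicate 3 its difference in that clone was 1.95 (limma, adjusted p = 0.00133). In clone 4.2 the difference of 1.01 was under the minimum, at 0.91 to 0.99, without WT replicate 1 or 2 or clone 4.2 replicate 1 or 2. LOXL4 rose in clone 4.1, from 366 ± 172 to 1147 ± 195 TPM (limma, adjusted p = 0.00901). TGM2, transglutaminase 2, rose in clone 1.2 of both lines, by 2.59 in A375 and 2.22 in WM115 on the log2 scale (limma, adjusted p = 0.00208 and 0.00266), the latter 1.80 without replicate 3 (limma, adjusted p = 0.0309). It fell in WM115 clone 1.1 by 1.15 (limma, adjusted p = 0.0402), a call that ended without WT replicate 1, 2 or 3 or clone 1.1 replicate 1, 3, 4 or 5 (limma, adjusted p between 0.0517 and 0.119). PLOD2, which hydroxylates collagen lysines, fell in WM115 clone 1.1 from 36.6 ± 3.82 to 11.5 ± 2.09 TPM (limma, adjusted p = 1.21e-05).

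Of 16 receptors of these proteins, 13 were tested in WM115 and 12 in A375. At most 1 was called in each direction against WT in any clone. Shares of all genes called were 7.57%, 6.6%, 7.61%, 4.88% and 0.618% in WM115 clones 4.1, 4.2, 1.2, 1.1 and 1.3. In A375 clones 1.1, 1.2, 4.1 and 4.2 they were 0.731%, 4.01%, 0.653% and 0.473%. CD36, the receptor of thrombospondins, was at 112 ± 49.7 TPM in WM115 WT and fell to 7.67 ± 4.81 in clone 4.1 and 7.58 ± 2.65 in clone 4.2 (limma, adjusted p = 0.00905 and 0.0122). Without clone 4.1 replicate 2 the difference in that clone was -3.30 (limma, adjusted p = 0.0507). THBS1 rose in the first of these clones and was not called in the second. ITGA9, whose integrin binds tenascin-C and osteopontin, fell in A375 clone 1.2 by 3.12 on the log2 scale (limma, adjusted p = 0.00255), the clone in which SPP1 rose. SDC1 rose in WM115 clone 1.2 from 18.2 ± 6.52 to 60.2 ± 35.0 TPM (limma, adjusted p = 0.0164), and was not called without clone 1.2 replicate 1 or 3 (limma, adjusted p = 0.076 and 0.0853). ITGB3 fell in WM115 clone 1.1 from 144 ± 34.4 to 66.3 ± 10.4 TPM (limma, adjusted p = 0.0169), and was not called without WT replicate 2 (limma, adjusted p = 0.0608).

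For members at 10 TPM or more in some group, the genes with the most similar profile were found among 15287 genes over the 39 libraries, after subtracting the mean of each line. For SPP1 these were TIMP2, GPNMB and GREB1, with a Pearson correlation of 0.90, 0.89 and 0.88. For THBS1 they were KRT80, DRAP1 and FOSL1 (0.93, 0.90 and 0.90), for THBS2 FOS, UCN2 and GPR137B (0.87, 0.86 and 0.85), and for TNC TRPV4, S1PR2 and CXXC5 (0.90, 0.89 and 0.86). FN1 was most like BOK, SLC2A1 and COA8 (0.80, 0.78 and 0.77) and SPARC most like TMEM179B (0.85). LOXL3 was most like DOK1 (0.87), whose exons share 4.95% of the exonic bases of LOXL3. HTRA2, which shares 14.3% of them, was not among the 3 most similar genes. Among members, FN1 went with LOXL2 (0.72) and TNC with LOXL3 (0.72). These libraries share lines, clones and WT groups, and the values are descriptions without a test.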

How the data were processed

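RNA of 39 libraries in 11 groups was measured, and per the labels it was poly-A selected and made into cDNA with random hexamers. The authors deposited gene-level and transcript-level TPM. The submitters' processing notes name DRAGEN and the build GRCh38; versions and the annotation release are not given in the sources used here. The gene table has 60871 lines, of which 200 are identical repeats and were used once. Each table holds 6 columns that match no sample and were not used. Read depth is unknown, since TPM carries no counts, and intervals or floors that need it are not given.

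Tests used limma 3.58.1 in R 4.3.3 on log2(TPM + 1), each line fitted on its own with 1 coefficient per group and a variance trend, over genes that reached 1 TPM in 3 or more libraries. Tests are two-sided, adjusted by Benjamini-Hochberg over all genes tested, in 15 comparisons. A fold on this scale understates the change of low genes. The fit was tested on simulated data. As deposited, the median log2 difference of all genes was -0.12 in WM115 clone 1.1 and -0.10 in clone 4.1, a shift of over 0.1 that median-of-ratios scaling removed. Same-numbered libraries of A375 clone 4.1 and WT deviated together from their group means (correlations of 0.33 to 0.78 over 4 pairs, all over 0.1). These numbers were therefore taken as pairs. That choice was made from these data, so p-values of the blocked fit carry it. In no other clone did every pair exceed 0.1.

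All members are described. From each of 3 lists of related genes, up to 4 are named: those called in the most of 9 comparisons with WT, ties broken by size. Members and lists were chosen with earlier results of these data known. Exons and positions are from GENCODE 29, and 9 of 10 members matched a RefSeq promoter. Alternatives were other pseudocounts, filters, scalings, pairings and left-out libraries. A split by mitochondrial share (at 2.5% in A375 and 7.5% in WM115) and the left-out libraries for the lists were added after seeing the data. The genes most like LOXL2 are not reported here.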

Additional observations from a re-analysis of the deposited data

Results flagged for a closer look

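In 6 of 47 groups of member values with 4 or more libraries, 1 library lay apart from the rest by a gap test at the 95% level. The test was run on TPM and not on the log2 scale of the other tests. Its chance rate of about 1 of 20 groups assumes normally distributed values, which was not checked for TPM. The 6 are therefore a description and not an excess over chance. THBS1 gave 3 of them: 813 TPM in A375 WT replicate 4 (others 61.2 to 189), 211 TPM in A375 clone 4.1 replicate 4 (others 16.3 to 45.2) and 243 TPM in WM115 WT replicate 3 (others 27.0 to 41.5). The first 2 carry the same replicate number in groups whose numbers were taken as pairs. SPARC was low in A375 WT replicate 4, at 2090.4 TPM (others 3061 to 3198). SPP1 was high in A375 WT replicate 2, at 9.55 TPM (others 3.5 to 4.27), and FN1 was high in A375 clone 4.1 replicate 2, at 63.1 TPM (others 10.5 to 17.3).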

How the results depend on the processing

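No difference of a called member changed sign under any alternative. The number of members called against WT moved by more than 1.5 times as follows. In A375 clone 1.2 it was 2, and 1 with no filter, with only the 2 groups fitted and with the replicate block, and 0 within libraries of low mitochondrial share. In A375 clone 4.1 it was 0, and 3 with the replicate block. In WM115 clone 1.1 it was 0, and 1 with only the 2 groups fitted and 2 with the replicate block. In WM115 clone 1.2 it was 3, and 1 with no filter, 0 with the block and 1 within libraries of high mitochondrial share. In WM115 clone 4.1 it was 4, and 2 with the mitochondrial set as a term and 0 within libraries of high share, where the clone has 1 library, assumed to vary like the other groups. In WM115 clone 4.2 it was 4, and 2 within libraries of high share. Smaller moves were 3 in clone 4.1 with the block, where THBS1 lost its call, and in clone 4.2 3 with the mitochondrial set as a term, where LOXL2 lost its call, and 5 with the block, where THBS1 gained one. Between clones, the 1 call of A375 clone 4.2 against 4.1, THBS2, was 0 with a pseudocount of 0.1 or no filter. It was also 0 with a mean TPM of at least 5, a filter under which THBS2 was not tested. The 2 calls of WM115 clone 1.2 against 1.1 became 1 with no filter or quantile normalization. Leaving out 1 library gave 1 to 2 calls in A375 clone 1.2, 0 to 5 in WM115 clone 1.2, 0 to 2 in clone 1.3, 1 to 3 in A375 clone 1.2 against 1.1, 0 to 2 in A375 clone 4.2 against 4.1 and 0 to 2 in WM115 clone 1.2 against 1.1. Calls over all genes moved as well, and the ranges given below are not matched by setting. Moves of the members therefore cannot be told from moves over all genes. The cause of these moves was not tested, except that the sets of mitochondrial share hold fewer libraries. Except in A375 clone 4.1 the numbers name libraries and do not pair them.

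Over all genes, the calls against WT across alternatives ranged from 1 to 223 in A375 clone 1.1 (122 as reported), 124 to 862 in 1.2 (669), 37 to 246 in 4.1 (109) and 15 to 107 in 4.2 (79). In WM115 they ranged from 371 to 1447 in clone 1.1 (829), 127 to 1672 in 1.2 (1293), 1 to 321 in 1.3 (105), 139 to 1767 in 4.1 (1286) and 568 to 1487 in 4.2 (1122). Depth is unknown, so low genes such as POSTN, LOX in A375 and LOXL1 in WM115 WT have no stated precision.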
